A study of Mus musculus with 2 samples.

Results

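The Pax genes encode transcription factors that bind DNA through a paired domain, and the members described here are Pax1, Pax2, Pax4, Pax5, Pax6, Pax7, Pax8 and Pax9, that is, the mouse family without Pax3. They are 8 of 21938 protein-coding genes of GENCODE vM21. Members were chosen by name, and the CpG sites by position, from the gene span extended 5 kb upstream of its start. These loci held 5448 CpG sites with 50555 calls in replicate 1 and 1880 CpG sites with 11685 calls in replicate 2, of 13676795 and 4918612 CpG sites in the whole data. In SCoTCH-seq the strands of a fragment stay joined and are sequenced as a pair, so that each call gives the state of a CpG on both of them at once. It was run on genomic DNA from E14 mouse embryonic stem cells (mESCs), an established line, grown on gelatin in a medium of serum with LIF. There was 1 condition, and the 2 replicates are separate passages of the line. Each letter of a state stands for 1 strand: C for unmodified cytosine, M for 5-methylcytosine (mC) and H for 5-hydroxymethylcytosine (hmC), so that CC is unmodified on both strands, MM symmetrically methylated, MC/CM hemimethylated, and HC/CH and HM/MH carry hmC on 1 strand opposite C or mC.

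Pax proteins direct the formation of organs in the embryo, and most are silent or low in mESCs. Start regions of such developmental genes are often rich in CpG, and in embryonic stem cells they are known to lie in broad unmethylated domains that carry Polycomb marks. TET enzymes oxidize mC to hmC, so a CpG can hold hmC on one strand while the other strand differs.

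The Pax loci were covered at 63.8% of their 8533 reference CpGs in replicate 1 and at 22.0% in replicate 2, with mean depths of 9.28 and 6.22 calls per site. Only CpG sites with 5 or more calls had been deposited. Spike-in duplexes of known state set the error, with the true state of each duplex CpG taken as its most frequent call. Of calls on true MM, 4.51% were HM/MH in replicate 1 and 0.467% in replicate 2, and of calls on true MC, 3.49% and 0.618% were HC/CH. HM/MH is therefore also given after correction for these rates. Promoters of marker genes were read for CC. Of 8 promoters of pluripotency genes, 7 had CC at or over 80% of calls in both replicates, and Esrrb, with 28.0% and 15%, did not. None of the 5 covered promoters of genes of other cell types passed, and their CC levels ranged from 10.7 to 43.4% in replicate 1 and from 0 to 27.8% in replicate 2. Of all 16489 protein-coding genes with enough calls, 49.7% passed. The lists were not matched for CpG content, so these levels do not identify the line. Levels below are percentages of all calls in a region, given for replicate 1 and then replicate 2. Ranges in parentheses are 95% Clopper-Pearson intervals, which account for the counting of calls but for no other error.

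RefSeq start windows of 300 bases (250 before and 50 after the start, GRCm38.p6) were found for 7 of the 8 genes, in 10 windows. Pax4 was not among them. Shown here are 5 of the windows with calls in both replicates, chosen because they span the range from nearly all CC to partly methylated. They are written 5′ to 3′ on the strand of the gene, with each CpG in capitals.
Pax2, chr19:44755502-44755801, plus strand: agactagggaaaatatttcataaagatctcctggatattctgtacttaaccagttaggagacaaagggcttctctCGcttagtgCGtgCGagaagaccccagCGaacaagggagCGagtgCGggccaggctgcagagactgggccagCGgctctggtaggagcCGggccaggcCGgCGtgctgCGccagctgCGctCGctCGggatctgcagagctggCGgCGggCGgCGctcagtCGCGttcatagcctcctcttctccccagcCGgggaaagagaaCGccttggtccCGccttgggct
Pax9, chr12:56695221-56695520, plus strand: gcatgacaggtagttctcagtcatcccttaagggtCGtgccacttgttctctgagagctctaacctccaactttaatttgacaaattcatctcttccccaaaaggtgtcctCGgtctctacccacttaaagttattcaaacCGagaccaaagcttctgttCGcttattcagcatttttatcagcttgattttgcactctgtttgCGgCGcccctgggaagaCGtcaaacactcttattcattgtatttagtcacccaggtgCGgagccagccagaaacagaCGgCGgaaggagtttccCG
Pax6, first start, chr2:105668646-105668945, plus strand: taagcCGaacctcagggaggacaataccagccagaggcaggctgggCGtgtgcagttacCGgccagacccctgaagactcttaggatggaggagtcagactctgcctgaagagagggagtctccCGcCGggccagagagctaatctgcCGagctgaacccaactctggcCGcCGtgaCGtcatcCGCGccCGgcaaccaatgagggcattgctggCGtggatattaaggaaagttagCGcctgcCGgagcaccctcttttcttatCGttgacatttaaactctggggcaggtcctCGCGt
Pax6, internal start, chr2:105682213-105682512, plus strand: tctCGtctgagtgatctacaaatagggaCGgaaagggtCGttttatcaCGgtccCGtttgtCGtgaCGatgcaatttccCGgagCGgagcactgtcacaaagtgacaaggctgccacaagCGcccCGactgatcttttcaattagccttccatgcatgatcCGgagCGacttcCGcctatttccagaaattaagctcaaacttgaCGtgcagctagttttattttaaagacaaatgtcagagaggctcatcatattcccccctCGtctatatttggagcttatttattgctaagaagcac
Pax5, chr4:44710645-44710944, minus strand: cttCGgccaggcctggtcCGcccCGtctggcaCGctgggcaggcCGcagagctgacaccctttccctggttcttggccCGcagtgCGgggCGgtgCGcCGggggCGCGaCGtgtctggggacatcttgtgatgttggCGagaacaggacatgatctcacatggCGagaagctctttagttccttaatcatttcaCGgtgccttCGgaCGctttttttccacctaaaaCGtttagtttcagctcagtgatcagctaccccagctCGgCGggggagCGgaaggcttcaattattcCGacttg

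The Pax2 window, with 23 CpGs, was CC in 60 of 61 calls in replicate 1 and in 67 of 68 calls in replicate 2. The Pax9 window, whose start lies 3704 bases downstream of the GENCODE start and outside the promoter used next, has 11 CpGs, and 110 of 113 and 35 of 36 calls were CC. At the first Pax6 start, with 18 CpGs, 57 of 58 and 10 of 10 calls were CC. At the CpGs covered, these windows were thus unmodified on both strands in nearly all calls, but only 11 and 13 of the 23 CpGs were covered at Pax2, 10 and 6 of 11 at Pax9 and 9 and 2 of 18 at Pax6. The internal Pax6 start lies 13563 bases downstream of the gene's GENCODE start and has 16 CpGs. It was CC in 140 of 155 calls (90.3%) and in 29 of 37 calls (78.4%), with 6 and 3 calls of HC/CH. The Pax5 window has 23 CpGs, of which 6 and 5 were covered, and was CC in 47 of 55 calls (85.5%) and 20 of 26 calls (76.9%). Among all 32851 RefSeq windows the median number of CpGs was 7. The Pax1 window, with 13 CpGs and a start 3069 bases downstream of the GENCODE start, had calls in replicate 1 alone, of which 82 of 85 were CC. The Pax7 window, with 17 CpGs, had calls in replicate 2 alone, and all 20 were CC. The Pax8 window, with 7 CpGs, had no calls.

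Promoters were next taken as 1 kb on either side of the gene start. Of the 7 Pax promoters with at least 20 calls in each replicate, 4 (Pax2, Pax6, Pax7 and Pax9) had CC at or over 80% in both, against 49.7% of 16489 protein-coding genes by the same rule. Pax8 had too few calls in replicate 2. At 4 of 7, the count is close to the share of all genes.

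Pax1 and Pax9 are paralogues that lack a homeodomain and act in the skeleton, the pharyngeal pouches and, for Pax9, the teeth and palate. The Pax9 promoter (gene at chr12:56691767-56712822, plus strand, overlapped by Slc25a21 on the other strand) was 94.8% CC (92.3 to 96.7%, 440 calls) and 95.5% CC (88.8 to 98.7%, 88 calls). The Pax1 promoter (gene at chr2:147361925-147393295, plus strand) was 87.6% CC (84.0 to 90.7%, 404 calls) in replicate 1 but 62.5% (45.8 to 77.3%, 40 calls) in replicate 2, with no overlap of the intervals. Only 7 of its 61 CpGs were covered in replicate 2, against 48 in replicate 1, and all 7 lie upstream of the start. In the 1 kb upstream of the Pax1 start, the part covered in both, CC was 79.1% in 191 calls and 62.5% in 40 calls. In the 1 kb downstream it was 95.3% in 213 calls of replicate 1, with no calls in replicate 2, so that the whole promoters compare unlike CpGs.

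Pax2, Pax5 and Pax8 keep only part of the homeodomain and are known for the kidney and midbrain, for B cells and for the thyroid, in that order. The Pax2 promoter (gene at chr19:44756045-44837871, plus strand) was 96.4% CC (93.9 to 98.1%) in 337 calls and 95.05% CC (88.8 to 98.4%) in 101 calls. The Pax5 promoter (gene at chr4:44524757-44710487, minus strand) was 62.3% CC (54.5 to 69.6%) in 167 calls and 79.4% CC (67.3 to 88.5%) in 63 calls. The Pax8 promoter (gene at chr2:24420560-24475599, minus strand) was 62.1% CC (53.6 to 70.2%) in 140 calls, and 12 of its 15 calls in replicate 2 were CC (51.9 to 95.7%). The Pax2 promoter was thus above those of both paralogues in replicate 1 with no overlap of intervals. In replicate 2 its interval lay just above that of Pax5 and overlapped that of Pax8.

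Pax4 and Pax6 share a full homeodomain, act together in the endocrine pancreas, and Pax6 also directs the eye and the forebrain. The Pax6 promoter (gene at chr2:105668900-105697364, plus strand) was 94.3% CC (91.9 to 96.2%, 492 calls) and 93.6% CC (89.6 to 96.4%, 233 calls). The Pax4 promoter (gene at chr6:28442334-28449353, minus strand) was the only one of the 8 with less CC than MM, with 16.7% CC (7.92 to 29.3%, 54 calls) and 7.14% CC (0.877 to 23.5%, 28 calls). Its MM level was 59.3% and 67.9%, and it has 11 reference CpGs where the Pax6 promoter has 92. Pax7, the paralogue of Pax3, acts in the neural crest and in muscle stem cells. Its promoter (gene at chr4:139737062-139833528, minus strand) was 95.1% CC (91.8 to 97.4%, 268 calls) and 100% CC (91.2 to 100%, 40 calls), beside 95.4% and 89.6% at Pax3.

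**Figure D1:**
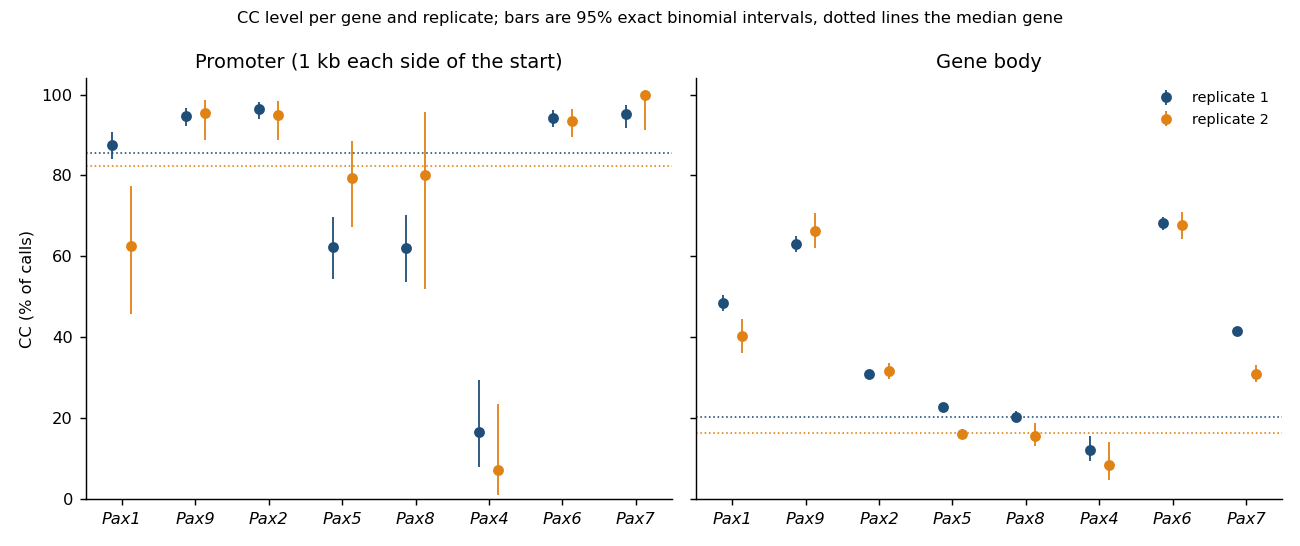
CC level (percentage of calls, vertical axis) in the promoter and body of each Pax gene in replicate 1 (blue) and replicate 2 (orange). Bars are exact 95% intervals and dotted lines the median protein-coding gene of each replicate. The Pax4 promoter sits at 16.7% and 7.14%, and the bodies of Pax6 and Pax9 stand above 60%.

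CC was compared between promoter and body with Fisher's exact test in every gene with at least 20 calls in each region and replicate. CC was higher in the promoter in 6 of the 7 Pax genes tested, with an adjusted p under 0.05 in both replicates, against 75.7% of 15572 genes and the opposite in 3.68%, so most genes show the same. The opposite was called in 0 of the 7, and it had an unadjusted p under 0.05 in none of them by this test. The exception was Pax4, with 16.7% in the promoter and 12.2% in the body in replicate 1 and 7.14% and 8.44% in replicate 2 (Fisher's exact test, adjusted p = 0.406 and 1). The weakest of the 6 calls was Pax1 in replicate 2 (62.5% against 40.2%, Fisher's exact test, adjusted p = 0.00953). HC/CH was lower in the promoter in 1 of 7, against 6.66% of genes, and higher in 0 of 7, against 0.482% of genes (0 of 7 also at an unadjusted p under 0.05). This was Pax6, with 1.02% and 1.29% in the promoter and 5.01% and 5.47% in the body (Fisher's exact test, adjusted p = 3.14e-05 and 0.04999). The call was lost on CpG sites covered in both replicates and with promoters of 500 bp either side, and with 2 kb either side it was made for Pax7 in place of Pax6. In replicate 1 alone Pax2 and Pax7 also passed, with 1.78% against 5.15% and 1.49% against 5.49% (Fisher's exact test, adjusted p = 0.00704 and 0.00501). In replicate 2 their promoters held 0.990% and 0% of HC/CH in 101 and 40 calls, which passed for neither (Fisher's exact test, adjusted p = 0.241 and 0.439).

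The bodies, taken as the gene span beyond 1 kb of the start, also differed among the paralogues. CC at or over 50% in both replicates was found in 2 of the 7 bodies with 50 or more CpG sites in both replicates, Pax6 and Pax9, against 3.34% of 10416 gene bodies. Pax6 had 68.2% CC (66.6 to 69.7%) and 67.7% CC (64.4 to 70.9%), which was more than in 98.9% and 99.1% of these 10416 bodies. Pax9 had 63.1% (61.2 to 65%) and 66.4% (61.9 to 70.62%), more than in 98.4% and 98.9% of them. Bodies with fewer covered CpG sites, as in many short genes, took no part in this ranking of Pax6 and Pax9. In both genes the body was thus mostly unmodified, and MM made up only 18.1% and 14.2% of calls in Pax6 and 24.3% and 24.2% in Pax9.

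Pax1 followed with 48.4% and 40.2% CC in the body, and Pax7 with 41.4% and 31.0%. Pax2 had 30.9% and 31.6%. In these 3 genes CC stood above the median gene, which had 20.3% and 16.4%. Pax5 (22.7% and 15.96%) and Pax8 (20.4% and 15.7%) lay near that median, as did Pax3 (23.4% and 21.4%). The Pax4 body, with 50 and 22 CpG sites covered, was the most methylated, with 12.2% and 8.44% CC and 65% and 68.8% MM. In Pax1, Pax5, Pax7 and Pax8 the body CC of replicate 2 was lower with no overlap of intervals, as in Pax7 (40.4 to 42.5% and 28.9 to 33.1%). The median gene was lower in replicate 2 too. Fewer CpGs were covered in replicate 2, and the cause of the difference was not tested.

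Exons and introns of the bodies were read apart. In Pax2 the exons were 80.3% and 85.4% CC and the introns 25.0% and 19.7%. In Pax1 the exons were 80.5% and 72.2% CC and the introns 38.9% and 32.9%. In these genes exons thus carried far less modification than introns, in both replicates. In Pax6 they were close, with 68.5% and 70.9% CC in exons and 68.0% and 65.5% in introns. Exons were also the higher in both replicates in Pax5 (33.2% and 20.7% against 22.0% and 15.6%), Pax8 (41.2% and 27.0% against 15.7% and 13.3%) and Pax9 (73.5% and 73.5% against 58.6% and 61.7%). They were the lower in Pax7, with 35.4% and 26.0% against 41.9% and 31.7%, and in Pax4, with 9.68% and 8.11% against 13.4% and 8.55%. Exons had the higher CC level in 6 of the 8 genes in both replicates, by small amounts in Pax6. The same order held in Pax3, with 28.5% and 32.7% against 23.0% and 20.1%. No share of all genes was taken for this order, so the count is not read as particular to the Pax genes. No test was made of these differences, and exons close to the start share the domain described next.

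Bins of 1 kb, counted from 5 kb upstream of the start, showed how far the unmethylated domains reached. A bin was taken as low-methylated where CC made up at least 50% of at least 20 calls in replicate 1. This held for 115 of 526 bins of the Pax loci (21.9%), against 10.4% of the bins of all protein-coding loci. Of the 72 low-methylated bins with at least 20 calls in replicate 2, which took no part in the choice, 61 (84.7%) passed there too, beside 83.1% at all loci. The low-methylated bins of the Pax loci held a median of 27 reference CpGs and the other bins a median of 11. Their CpGs were covered less often, at 56.4% and 17.5% against 70.5% and 25.8%.

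**Figure D2:**
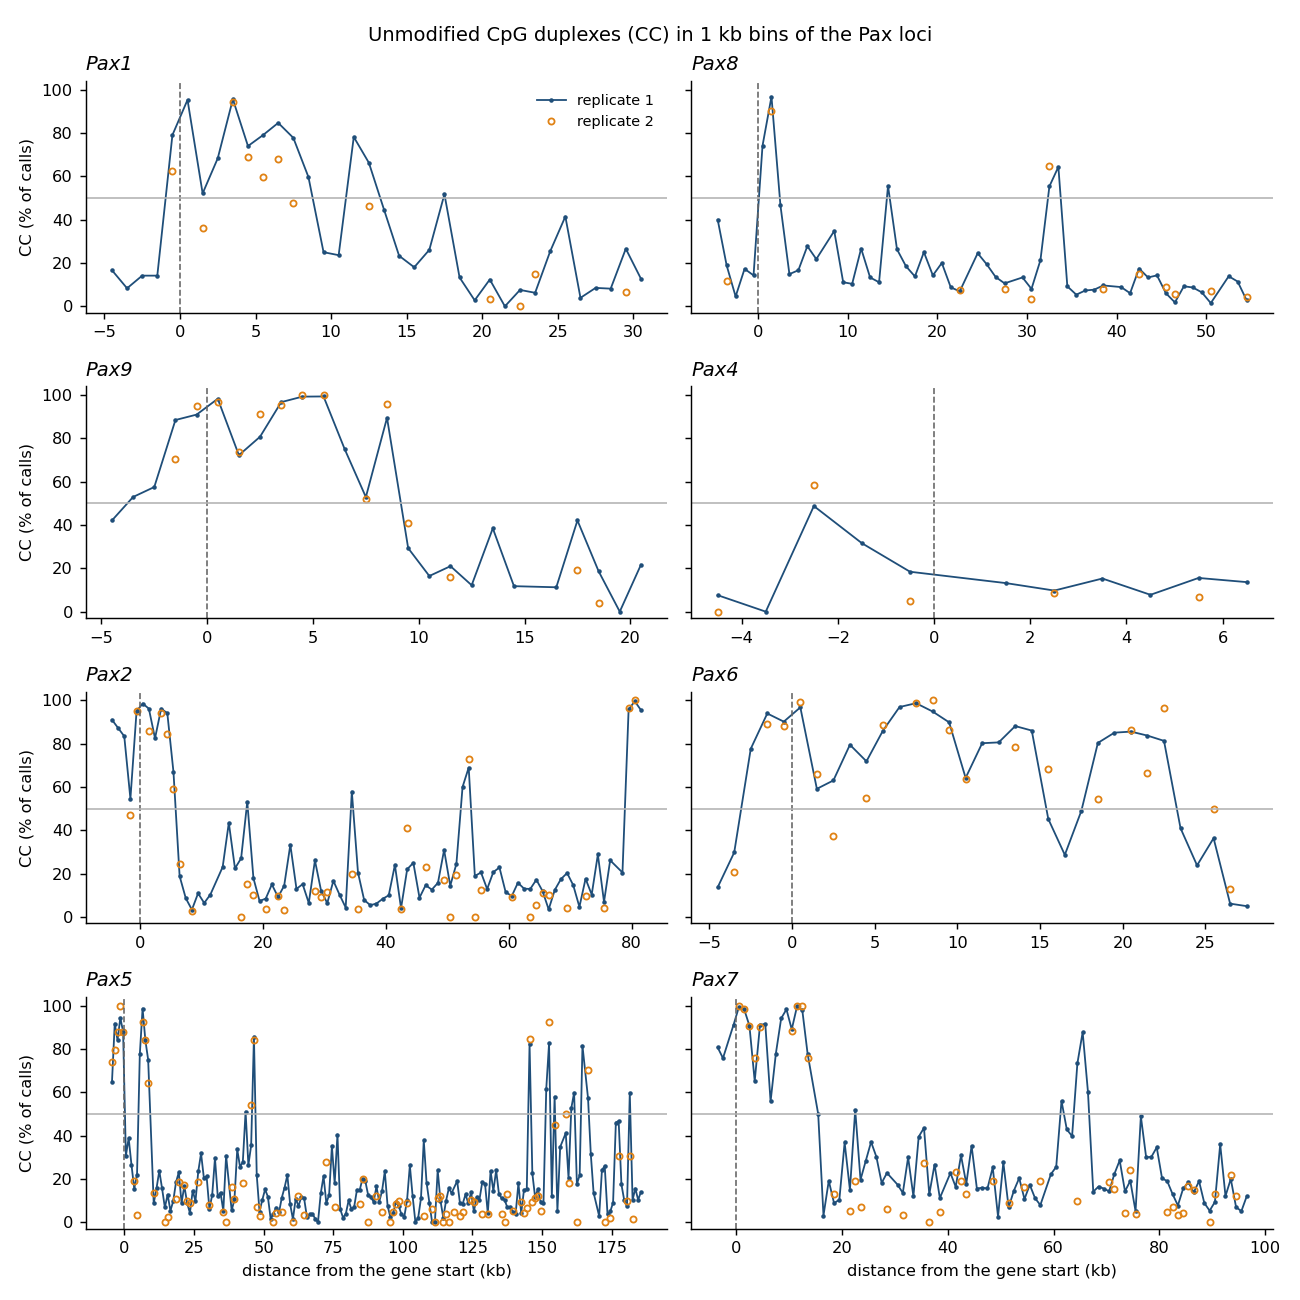
CC level (percentage of calls, vertical axis) in 1 kb bins against the distance from the gene start (kb, horizontal axis; dashed line at the start), for bins with at least 20 calls. The blue line is replicate 1, orange circles are replicate 2 and the grey line marks 50%. In replicate 1 the unmethylated domains of Pax1, Pax6, Pax7 and Pax9 run 9 kb or more into the gene, and Pax4 has none around its start.

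Among runs defined in replicate 1, the longest was at Pax7, where 20 kb from -4 to 16 kb were 89.6% CC in replicate 1 and 88.8% in replicate 2 (2661 and 502 calls). At Pax6, 18 kb from -3 to 15 kb were 85.0% and 82.2% CC, and a further 5 kb from 18 to 23 kb were 82.9% and 71.0%. Pax6 has 10 annotated starts of protein-coding transcripts, all within the longer run. At Pax9, 13 kb from -4 to 9 kb were 84.4% and 84.6% CC. At the CpGs covered, these 3 domains were thus mostly CC far past the promoter in both replicates. Coverage was partial, with 336 and 84 of 637 CpGs at Pax7, 316 and 116 of 592 in the longer Pax6 run and 311 and 88 of 437 at Pax9. The Pax6 run had a break in replicate 2, where the bin from 2 to 3 kb was 37.5% CC in 40 calls. Bins of under 20 calls were bridged in the runs of both replicates. With runs defined in replicate 2, the longest was 22 kb at Pax6 and Pax7 had 14 kb. The Pax6 run of replicate 2 crossed bins under 50% CC, such as that from 16 to 17 kb with 28.7% of 157 calls and 12.5% of 16 calls.

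At Pax2, the run of 11 kb from -5 to 6 kb, which meets the upstream limit, was 85.2% and 81.5% CC. A separate run of 3 bins at the 3′ end of Pax2, from 79 kb to the end of the gene at 82 kb, was 97.4% CC in 506 calls and 98.0% CC in 149 calls, and overlaps 3 annotated exons. The gene 1700039E22Rik and other annotated transcripts overlap the Pax2 locus, and the calls cannot be assigned to one of them. At Pax1, 10 kb from -1 to 9 kb were 81.1% CC in replicate 1 and 63.7% in replicate 2. Of the 297 CpGs of the Pax1 run, 176 and 51 were covered. Over the whole Pax1 locus, 90 of the 100 CpG sites of replicate 2 were covered in both replicates. The cause of the difference in CC was not tested.

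Pax5 and Pax8 had shorter runs within their loci. At Pax5, the 5 kb upstream of the start, a run that meets the upstream limit and may go on beyond it, were 84.7% and 85.9% CC, and the 1 kb bin of Pax5 that begins at the start was 30.7% CC in 75 calls of replicate 1. A second domain from 5 to 9 kb was 82.9% and 75% CC and holds the downstream starts at 6481 and 7074 bases. Within 500 bases of those starts CC was 98.5% and 100% at the nearer, and 95.6% and 96.5% at the farther. Another annotated Pax5 start, 64764 bases into the gene, was 8.81% and 1.75% CC and 64.2% and 94.7% MM. The Pax5 starts thus ranged from almost all CC to mostly MM. At Pax8 the run was 2 kb from the start, with 87.3% CC in 267 calls and 85.7% in 35 calls. Pax4 had no low-methylated bin in replicate 1. Its bin from -3 to -2 kb lay just under the threshold in replicate 1 (48.8% CC) and over it in replicate 2 (58.3%).

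HC/CH in the bodies lay between 4.97 and 6.43% in both replicates in 5 of the 8 genes. It was 5.27% ± 0.166 (SD, n = 2) in Pax2, 5.21% ± 0.338 in Pax5, 5.24% ± 0.327 in Pax6, 5.96% ± 0.666 in Pax7 and 5.76% ± 0.8004 in Pax8. Pax9 was the lowest, with 3.05% (2.41 to 3.80%) and 2.73% (1.46 to 4.63%), and in replicate 1 its interval lay below those of these 5 genes. Pax1 differed between replicates, with 4.44% (3.67 to 5.32%) and 8.32% (6.08 to 11.0%). Pax4, with 460 and 154 calls, had 3.91% and 5.84%. The median over the 8 bodies was 5.08% and 5.66%, where the median over 10416 genes was 5.01% and 4.31%. Among the Pax genes, 4 bodies in replicate 1 and 7 in replicate 2 lay above the median gene.

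HM/MH was lower than HC/CH in most Pax bodies, with a median of 3.92% and 2.91%, beside 4.29% and 2.74% for all genes. Replicate 1 holds more miscalled MM, as given above. After correction with the call rates of the duplexes the median of the Pax bodies was 1.88% and 2.60%, beside 1.63% and 2.36% for all genes. That of HC/CH was then 4.67% and 5.74%, beside 4.54% and 4.29% for all genes. The Pax median of HM/MH in replicate 1 was thus below that of all genes only as called. Pax7 had the highest corrected HM/MH in both replicates, with 2.41% and 3.70%, and Pax9 had 1.17% and 0.410%. Pax4 had no HM/MH call among 154 calls in replicate 2, which allows up to 2.37%. HH, with hmC on both strands, stayed at or below 0.608% of calls in every Pax body as called. Of duplex calls on true MM, 0.709% and 0.0117% were HH. The median HH of the Pax bodies was 0.499% and 0.252% as called and 0.117% and 0.235% after correction.

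**Figure D3:**
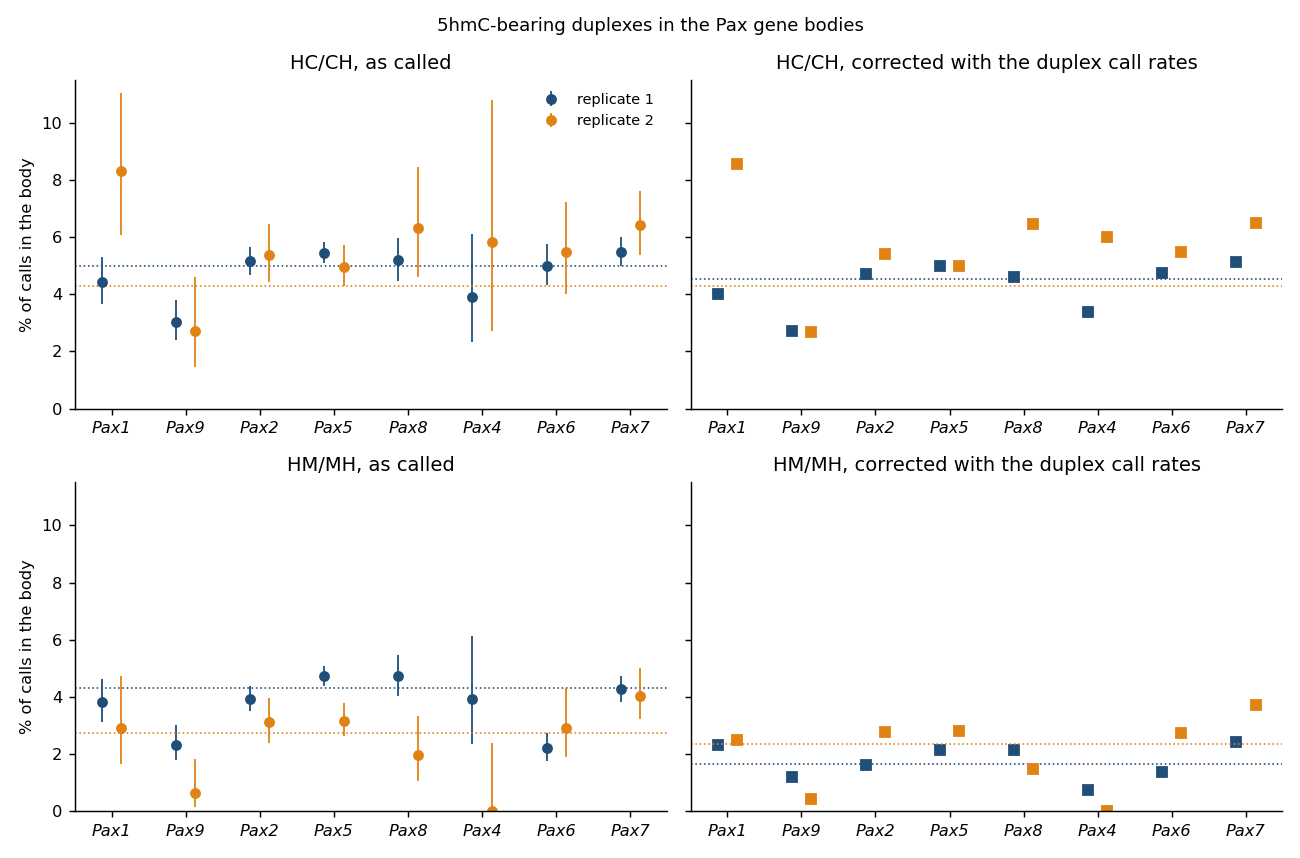
Percentage of calls in each Pax body (vertical axis) that were HC/CH (top) or HM/MH (bottom), as called with exact 95% intervals (left) and after correction with the spike-in duplexes (right). Blue is replicate 1, orange replicate 2, and dotted lines are the median gene. Correction lowers the median HM/MH from 3.92% to 1.88% in replicate 1 and from 2.91% to 2.60% in replicate 2.

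Both forms were compared within each body by an exact binomial test. HC/CH exceeded HM/MH in 3 of the 7 Pax bodies tested, in Pax2, Pax5 and Pax7, against 17.1% of 10416 genes. These 3 had the most calls, 7838, 15372 and 8293 in replicate 1, where the others tested had 2494 to 3616. HC/CH made up 53.6 to 56.7% of the calls compared in these 3 and 52.4 to 69.4% in the others in replicate 1. In replicate 2 it made up 61.1 to 63.5% and 65.2 to 81.3%, so the count does not mark the bodies with the largest excess. Pax2 had 404 calls of HC/CH and 308 of HM/MH in replicate 1, and 106 and 61 in replicate 2 (exact binomial test, adjusted p = 0.00152 and 0.00516). Pax5 had 838 and 726, and 187 and 119 (exact binomial test, adjusted p = 0.0142 and 0.00148). Pax7 had 455 and 353, and 126 and 79 (exact binomial test, adjusted p = 0.00156 and 0.00876). Pax6 showed the largest ratio in replicate 1, with 181 and 80 calls (exact binomial test, adjusted p = 7.42e-09), and missed the threshold in replicate 2 with 45 and 24 (adjusted p = 0.0523 by the same exact test). The reverse, HM/MH above HC/CH, passed this exact test in 0 of the 7 bodies, against 0% of genes, and at an unadjusted p under 0.05 in both replicates in 0 of 7 and in 5 genes. On CpG sites covered in both replicates, 1 body, that of Pax7, still passed, and the calls for Pax2 and Pax5 ended. Miscalled MM adds to HM/MH and miscalled MC to HC/CH in replicate 1, and these counts are as called. After correction with the duplex call rates, HC/CH was above HM/MH in every Pax body in both replicates. In Pax8, for example, it was 4.62% against 2.14% in replicate 1 and 6.46% against 1.46% in replicate 2. The corrected levels were not tested.

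HC/CH was also read as a share of the modified calls, that is, of all calls but CC. This reading was chosen after the values were seen. In Pax6 it was 15.7% and 16.9%, above 98.6% and 99.2% of 10405 genes, whose median was 6.43% and 5.26%. In Pax1 it was 8.61% and 13.9%, in Pax7 9.37% and 9.31%, and in Pax9 8.26% and 8.12%. In Pax2, Pax5 and Pax8 the share ran from 5.92 to 7.88% over both replicates, and in Pax4 it was 4.46% and 6.38%. The share of Pax6 was the highest of the 8 in both replicates. The Pax6 body was mostly CC, and in the low-methylated bins of all protein-coding loci the share was similar, at 16.5% and 15.6%. Whether the Pax6 share differs from that of equally unmodified bodies was not tested. The other asymmetric states of Pax6 had large shares of the modified calls too, with 19.0% and 28.2% for MC/CM (above 86.9% and 99.9% of genes) and 6.95% and 9.02% for HM/MH (above 88.1% and 99.4%). MM made up 56.7% and 44.0% of them, where the median gene had 70.8% and 73.4%. As a percentage of all calls, hemimethylation was 11.0% and 12.3% in the median Pax body and 12.9% and 14.3% in the median gene. On that scale it was lowest in Pax6 (6.06% and 9.11%) and Pax9 (6.94% and 6.09%), and highest in Pax4 (14.8% and 16.9%) and Pax8 (15.4% and 15.8%).

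The orientation of the asymmetric states relative to the gene was tested next. For HC/CH the exact binomial test of sense against antisense hmC passed in 0 of 7 Pax bodies, against 0% of 10416 genes. At an unadjusted p under 0.05 in both replicates it was 0 of 7 and 28 genes. The smallest p was that of Pax6 in replicate 1, with 76 sense and 105 antisense calls (exact binomial test, p = 0.0371), and replicate 2 had 20 and 25. For MC/CM it passed in 0 of 7 Pax bodies, against 0% of genes, and with unadjusted p under 0.05 in 0 of 7 and in 112 genes. In Pax5, the gene with the most calls, 49.6% (46.2 to 53.1%) of HC/CH in replicate 1 had hmC on the sense strand. In replicate 2 it was 48.7% (41.3 to 56.1%).

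HC/CH varied with the distance from the low-methylated bins. Loci without a low-methylated bin, Pax4 among them, have no such distance and were left out. In the other 7 Pax loci it was 3.86% and 5.26% of calls inside low-methylated bins, 7.08% and 7.55% in the bins adjacent to them, 5.80% and 6.81% in the next pair of bins, and 5.27% and 4.61% in bins farther away. In replicate 2, which was not used to choose the bins, the interval of the adjacent bins (5.99 to 9.36%) did not overlap that of the farther ones (4.06 to 5.21%), but it overlapped those of the low-methylated bins (4.59 to 6.01%) and of the next pair of bins (5.36 to 8.52%). All such loci together had the same order, with 3.30% and 3.77% inside, 6.28% and 5.83% in adjacent bins and 4.35% and 3.70% farther away. Of the modified calls inside low-methylated bins, 22.4% and 24.0% were HC/CH at the Pax loci, against 16.5% and 15.6% at all such loci. True CC was called HC/CH in 0.154% and 0.219% of duplex calls. Bins of a locus share their library, and no test was made between the Pax loci and the rest.

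**Figure D4:**
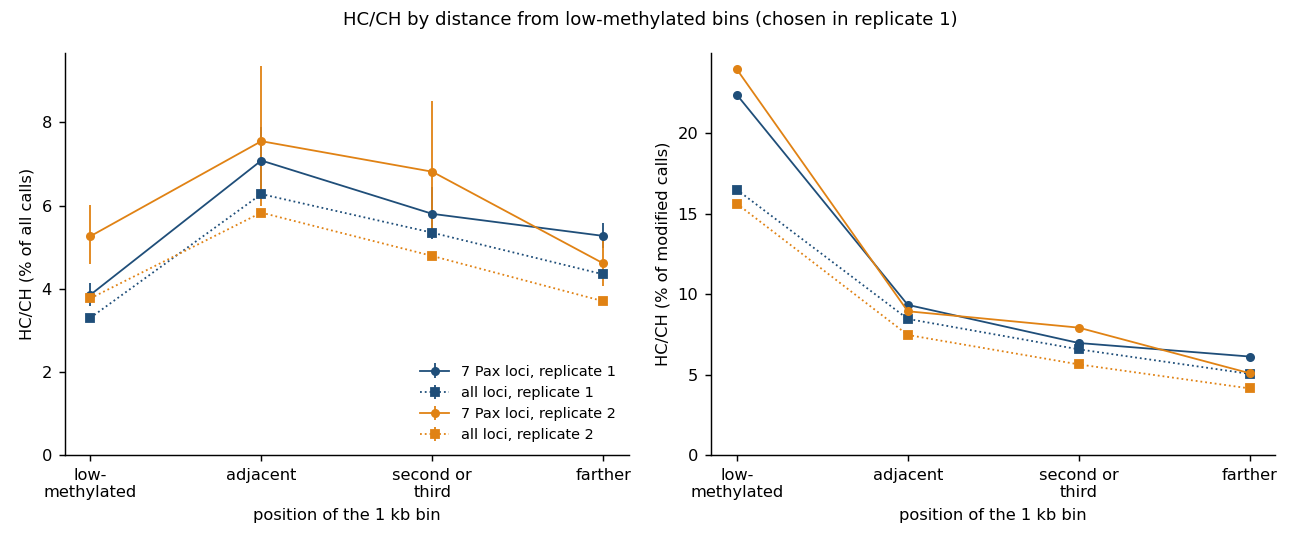
HC/CH as a percentage of all calls (left, with exact 95% intervals) and of modified calls (right) by the position of the 1 kb bin relative to low-methylated bins chosen in replicate 1. Solid lines are the 7 Pax loci with a low-methylated bin and dotted lines all such protein-coding loci, with replicate 1 in blue and replicate 2 in orange. The Pax loci are highest in the adjacent bins, at 7.08% and 7.55% of calls, and in replicate 2 their interval there overlaps those of the neighbouring positions.

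The genes did not all show this order. The 17 adjacent bins of Pax5 held 7.75% and 7.64% HC/CH where its 127 farther bins held 4.95% and 3.63%. At Pax2 the 8 adjacent bins held 6.20% and 9.86% and the 44 farther bins 5.32% and 5.06%. In Pax1, Pax6 and Pax8 the adjacent bins also had a higher level than the farther bins in both replicates, with 4.95% and 3.23% against 3.35% and 1.60% in Pax1, 6.03% and 5.31% against 4.48% and 4.88% in Pax6, and 9.63% and 6.90% against 4.87% and 6.01% in Pax8. In Pax7 the order was reversed in replicate 1, with 6.16% and 7.56% against 6.58% and 5.98%. In Pax9 it was reversed in replicate 2, with 7.08% and 3.57% against 4.97% and 5.62%, where the adjacent bins had 28 calls. In Pax6 and Pax7, however, the next pair of bins held more than the adjacent ones in both replicates, with 7.12% and 9.09% in Pax6 and 6.41% and 13.98% in Pax7. In replicate 2, 3 of the 7 loci had more HC/CH inside their low-methylated bins than in the adjacent ones, namely Pax1 (10.8% against 3.23% of 31 calls), Pax8 (8.97% against 6.90% of 58 calls) and Pax9 (3.63% against 3.57%). None of these differences within single genes was tested. HM/MH in the adjacent bins of the 7 loci was 6.05% and 5.26%, against 5.00% and 3.32% farther away, and after correction 3.82% and 4.90% against 2.08% and 2.94%.

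In each locus the 1 kb bin with the highest HC/CH, by the lower of the replicates and with at least 30 calls in each, was located. At Pax1 it lay 1 to 2 kb past the start (chr2:147362925-147363924), inside the run defined in replicate 1, with 11.7% of 94 calls and 21.2% of 33 calls. Its CC level was 52.1% and 36.4%, so that in replicate 2 it was not low-methylated. At Pax7 it lay 85 to 86 kb past the start, with 10.3% of 87 and 12.5% of 48 calls, and at Pax5 159 to 160 kb past it, with 9.71% of 103 and 15.4% of 39 calls. At Pax6 it lay 2 to 3 kb past the start, over an annotated exon, with 9.24% of 119 and 7.50% of 40 calls. Pax2 reached 10 of 128 calls (7.81%) and 7 of 35 calls at 64 kb. Among only 7 bins of Pax9 and 4 of Pax4 with enough calls, the highest lay upstream of the start, with 1.92% and 7.44%, and 5.00% and 15.5%. In replicate 1 the Pax9 bin was below the level of the Pax9 body (3.05%), so it is not read as a peak of HC/CH. Pax8 reached 6.31% and 5.56%, among only 3 bins with enough calls. Such highest values are chosen from 3 to 41 bins a locus, and with 2 to 13 calls of HC/CH each they are coarse. The bins with the highest MC/CM, chosen in the same way, held 12 to 21.6% in replicate 1 and 16.1 to 30.6% in replicate 2. They lay inside the genes, where most bins of each locus lie.

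Of 1593 CpG sites of the Pax loci covered in both replicates, 4 had HC/CH at or over 30% of calls in each, that is, 0.251%, against 0.135% of 4520128 CpG sites of the genome. All lie in introns, 3 in Pax5 and 1 in Pax7, which hold 571 and 251 of the 1593 sites. Introns held 570 of 614 body sites of Pax5 and 273 of 312 of Pax7 in replicate 2, so these places are not read as a result. The 4 sites are shown on the strand of the gene with the called CpG in capitals, since they are the single CpGs at which HC/CH was highest in both replicates.
Pax5, chr4:44556419-44556448, minus strand: atctacttgcatggCGtgtggcctgaccct
Pax5, chr4:44624571-44624600, minus strand: ctgggttaaaattcCGtcctttcttctctg
Pax5, chr4:44702421-44702450, minus strand: aattccaagtggaaCGaatcgcgtttcctt
Pax7, chr4:139788950-139788979, minus strand: cacacctggtgagcCGgttacagctgagca

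At these CpGs HC/CH made up 2 of 6 and 3 of 8 calls, 2 of 5 and 3 of 5 calls, 3 of 7 and 2 of 5 calls, and 3 of 9 and 2 of 5 calls, in the order shown. The Pax5 site at chr4:44702435 lies 8052 bases past the start, inside the unmethylated domain around the downstream starts, and its 5 calls of HC/CH were all CH, with hmC on the minus strand. With 5 to 9 calls a site, single levels have wide errors, and 4 of 1593 sites is a small count.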

How the data were processed

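Genomic DNA of E14 mESCs was measured by SCoTCH-seq in 2 replicates, which are separate passages of 1 line. Errors between them hold the spread of passages and libraries, and also differences in covered CpGs, miscall rates and numbers of calls. The authors trimmed the reads with cutadapt 4.6, aligned them with BSBolt to GRCm38 (mm10) and used Picard 3.1.1 (tools and versions partly from the submitters' processing notes). They removed CpG sites with under 5 calls, blacklisted regions and sites with several calling errors. The deposited files hold, for each CpG site and replicate, the count of calls in each of 9 states and the same as a percent of calls, without normalization. Spike-in files hold the deposited counts of calls on duplexes of known state, lambda DNA and pUC19.

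Calls were summed over regions, so that deeper sites weigh more, and levels are percentages of these sums. The genome had 143497239 calls in replicate 1 and 31306245 in replicate 2, with median depths of 10 and 6 calls per site, so replicate 2 gives wider intervals. Corrected levels solve the 9 by 9 matrix of duplex call rates of the same replicate, with negative values set to 0. Promoter and body calls were compared by a two-sided Fisher's exact test in genes with at least 20 calls in both regions and replicates, and paired states by a two-sided exact binomial test in bodies with 50 or more CpG sites in both replicates. P-values were adjusted by Benjamini-Hochberg over all genes tested, and a call needed an adjusted p under 0.05 and the same direction in both replicates. Calls on neighbouring CpGs of 1 fragment are not independent, so these p-values and the intervals cover counting error only. All 8 members were named, with 1 kb bins of the highest HC/CH and MC/CM among those with at least 30 calls in each replicate, and CpG sites with HC/CH at or over 30% in both. Members and lists were chosen with earlier results of these data known. A further gene list that was read is not reported here. Tests were checked on simulated data. Alternatives were the coverage minimum, shared CpG sites, equal weight per site, both corrections, region sizes, thresholds and leaving out a replicate. Python 3.11.15, NumPy 2.4.6, pandas 2.3.3, SciPy 1.17.1 and Matplotlib 3.10.9 were used.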

Additional observations from a re-analysis of the deposited data

How the results depend on the processing

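With 10 calls per site as the minimum, 1 Pax promoter (Pax6) kept enough calls, and both the count of promoters at or over 80% CC and the count with CC higher in the promoter became 1 of 1. The median body HC/CH moved from 5.37% to 4.78% and that of MC/CM from 11.6% to 13.997% at that minimum. With the duplex and the lambda corrections, the median HM/MH moved from 3.42% to 2.24% and 2.42%, and that of MC/CM to 10.7% and 9.50%. The correction subtracts miscalls, and for the coverage minimum the cause was not tested. The count of promoters lower in HC/CH by Fisher's exact test, 1 of 7, became 0 of 1 with 10 calls per site, 0 of 5 on shared CpG sites and 0 of 6 with 500 bp promoters. At an unadjusted p under 0.05 these were 0, 1 and 1. With 2 kb promoters it was Pax7 in place of Pax6, and for CC Pax8 was gained and Pax1 lost. HC/CH exceeded HM/MH in 1 body (Pax7) on shared CpG sites. The low-methylated span of 115 kb became 64 kb at a CC threshold of 80%.

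Leaving out a replicate, the count of promoters lower in HC/CH ran from 0 (without replicate 1, with 1 at an unadjusted p under 0.05) to 3 (without replicate 2), and that of bodies with HC/CH above HM/MH from 4 to 5. The promoter CC count ran from 4 to 5, the promoters higher in CC from 6 to 7, and the medians of HC/CH from 5.08 to 5.66%, of HM/MH from 2.91 to 3.92% and of MC/CM from 11.0 to 12.3%. Without replicate 1 the low-methylated span was 66 kb, over fewer bins with enough calls. The sense tests stayed at 0 in each alternative run. The binomial tests were not run with 10 calls per site, where no Pax body held 50 CpG sites in each replicate. No paired analysis was possible because there is only 1 group. The depth of replicate 2 limits promoters, single bins and single CpG sites, such as the Pax8 promoter with 15 calls.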
